A study of Apis mellifera with 6 samples.

Results

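Hsc70-3 and Hsc70-5 are the genes of the organelle-resident Hsp70 chaperones. They were taken by gene ID and make up 2 of the 10151 genes listed for honey bee (Apis mellifera) midgut. Hsp70 proteins bind exposed hydrophobic stretches of unfolded proteins and release them in a cycle driven by ATP. In Drosophila melanogaster, Hsc70-3 is the member of the endoplasmic reticulum (ER), known in mammals as BiP, where it folds secretory proteins and keeps the sensors of the Unfolded Protein Response (UPR) in check. Hsc70-5 is the member of the mitochondrial matrix, known in mammals as mortalin, which pulls imported proteins across the inner membrane and helps them fold. Hsc70-4 is the cytosolic member of the same family and serves here as the nearest gene for comparison. These compartments are known from those species and were not measured in the bee.

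The libraries came from poly(A)-enriched RNA of individual midguts, 3 from bees kept at 45 °C and 3 from bees kept at 35 °C, the usual temperature of the incubators. The labels give 4 h and sucrose solution with 0.5% DMSO for both groups. The bees were adults of outbred stock caught at the landing board, and their ages are not given. All libraries at 35 °C, and none at 45 °C, were taken over from another series of the study, so the effect of temperature and any effect of the series cannot be told apart. The methods give 4 h for both temperatures but also describe controls fed DMSO for 24 h, and which time holds for the libraries taken over is unclear. Bees of an experiment shared a colony, by the methods, but whether those at 45 °C and at 35 °C did is not stated. P-values measure the spread between these bees only.

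Sequencing depth was similar, with 24690115 to 26921417 recovered reads in the libraries at 45 °C and 23305758 to 26279130 in those at 35 °C. Among the libraries at 35 °C, replicate 1 stood apart. Its reads differed from those of the other bees by a mean chi-square per gene of 123 and 135, against 44.4 between replicates 2 and 3. At 45 °C replicate 1 also differed most, by 113 and 120, against 71.6 between replicates 2 and 3. The response of Hsc70-3 is therefore also given without 35 °C replicate 1. The honey bee alpha-glucosidases Hbg2, Hbg3 and AGLU2 (Hbg1), matched by symbol, were taken as midgut markers. Together they took 4.67 to 5.46% of reads at 45 °C and 4.74 to 6.61% at 35 °C. Which tissue makes each of them was not tested. Hbg3 was a small part, with 1863 to 1982 normalized counts at 45 °C and 1089 to 1578 at 35 °C. Of 15 markers of fat body, head glands, flight muscle and venom gland, 10 were listed, and together they took 0.0144 to 0.0188% at 45 °C and 0.0142 to 0.0238% at 35 °C. Of these 10, 2 were called higher at 45 °C, the fat body markers Vg and Hex110, and 1 lower, the muscle marker TpnCIIIa, where 13.1% of all genes were called higher and 4.94% lower. Others of the same tissues did not follow them, with log2 fold changes of -0.91 for HEX70b, 0.18 for Hex70a and 0.00 for Hex70c in fat body and of 0.43 for TpnT and 0.16 for TpnI in muscle. Their part in the results was not tested. In whole midguts, a change in the number of cells and a change in RNA per cell cannot be told apart.

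Both organelle Hsp70 transcripts rose at 45 °C, and every heated bee lay above every bee at 35 °C. Hsc70-3 had 259282, 265404 and 273940 normalized counts in the 3 midguts at 45 °C, against 63805, 31953 and 23064 in those at 35 °C. The lowest heated bee was 4.06 times the highest bee at 35 °C. Mean values were 266208 ± 7362 in heated bees and 39607 ± 21422 in bees at 35 °C (SD, n = 3 each). On the log2(value + 1) scale the fold change was 2.88 (standard error, SE, 0.36, 95% interval 2.04 to 3.73, limma adjusted p = 0.00111), which is 7.37-fold (4.11 to 13.2). The interval and p rest on an estimate of spread shared by both groups. The SD of log2 values of this gene was 0.040 at 45 °C and 0.750 at 35 °C, so that sharing does not hold well here. Without 35 °C replicate 1 the log2 fold change was 3.29 (limma adjusted p = 2.36e-04).

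Hsc70-5 had 52905, 60423 and 53876 normalized counts at 45 °C, against 5129.7, 4667 and 4529 at 35 °C. The lowest bee at 45 °C was 10.3 times the highest at 35 °C. It averaged 55735 ± 4089 in heated bees and 4775 ± 315 in bees at 35 °C (SD, n = 3 each). The log2 fold change was 3.54 (SE 0.13, 95% interval 3.24 to 3.85, limma adjusted p = 6.77e-06), or 11.7-fold (9.42 to 14.5). It ranked 118 of 10151 genes by log2 fold change, and Hsc70-3 ranked 236. These ranks depended on the setting. With a pseudocount of 10 they were 66 for Hsc70-5 and 137 for Hsc70-3, and after quantile normalization 144 for Hsc70-5 and 455 for Hsc70-3. Both genes were thus past the threshold of an adjusted p below 0.05 and a log2 fold change above 1, as were 13.1% of all genes in this direction. Groups that did not overlap in this direction were found for 26.8% of all genes. With 3 libraries against 3, an exact permutation test gave p = 0.1 for each gene (two-sided), the smallest that the design allows.

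**Figure D1:**
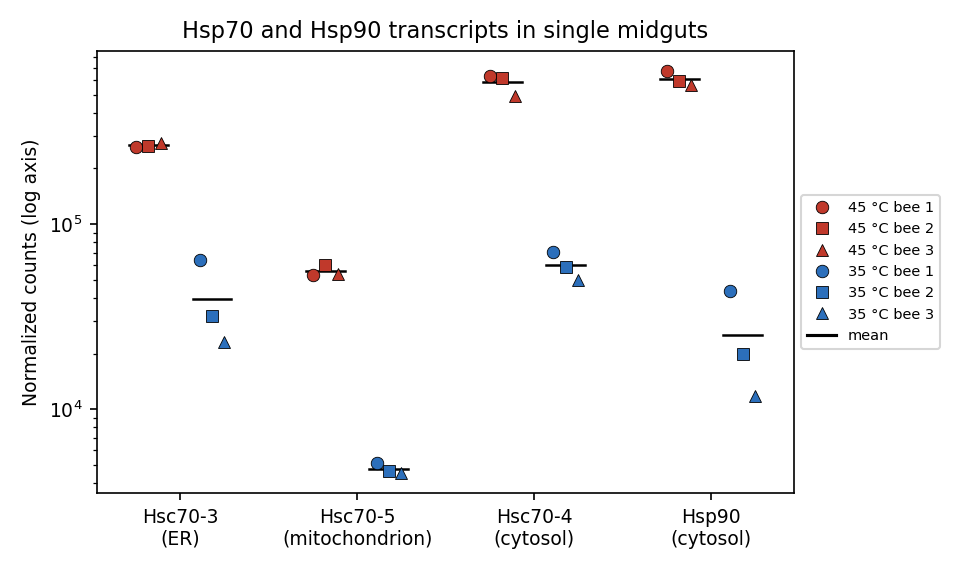
Normalized counts (log axis) of Hsc70-3, Hsc70-5, Hsc70-4 and Hsp90 in each midgut at 45 °C (red) and 35 °C (blue), with a bar at each mean. Hsc70-3 lay between 259282 and 273940 in heated bees and between 23064 and 63805 at 35 °C, where bee 1 was highest for all 4 genes.

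The rise could also be read from the share of each library. Hsc70-3 took 0.829, 0.946 and 1.02% of all recovered reads at 45 °C, against 0.294, 0.144 and 0.105% at 35 °C. Hsc70-5 took 0.169, 0.215 and 0.200% at 45 °C, against 0.0236, 0.0210 and 0.0207% at 35 °C. Among all listed genes, Hsc70-3 ranked 22, 21 and 19 by normalized counts in the heated bees, and 30, 63 and 94 in the bees at 35 °C. Hsc70-5 moved further up, to ranks 54, 45 and 51 at 45 °C, against 510, 597 and 600 at 35 °C. Transcript length was not accounted for, so such ranks do not order transcripts by abundance. By the gain in mean normalized counts, 226601 for Hsc70-3 and 50960 for Hsc70-5, the genes ranked 14 and 22 of all.

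Quantile normalization moved the response of Hsc70-3 more than that of Hsc70-5. After quantile normalization Hsc70-3 had a log2 fold change of 1.90 (limma adjusted p = 0.00885) and Hsc70-5 had 3.10 (limma adjusted p = 1.57e-05), while the median of all genes moved to -0.15. With TMM factors edgeR gave 2.74 for Hsc70-3 and 3.54 for Hsc70-5. With library size alone both fell alike in edgeR, to 2.36 for Hsc70-3 and 3.16 for Hsc70-5, with a median of all genes at -0.39. Relative to that median the values were 2.75 for Hsc70-3 and 3.55 for Hsc70-5, close to the 2.89 and 3.55 found with the size factors of the authors. DESeq2, the tool named in the methods, gave 2.75 (adjusted p = 5.62e-15) for Hsc70-3 and 3.55 (adjusted p = 4.14e-143) for Hsc70-5 on the recovered reads.

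**Figure D2:**
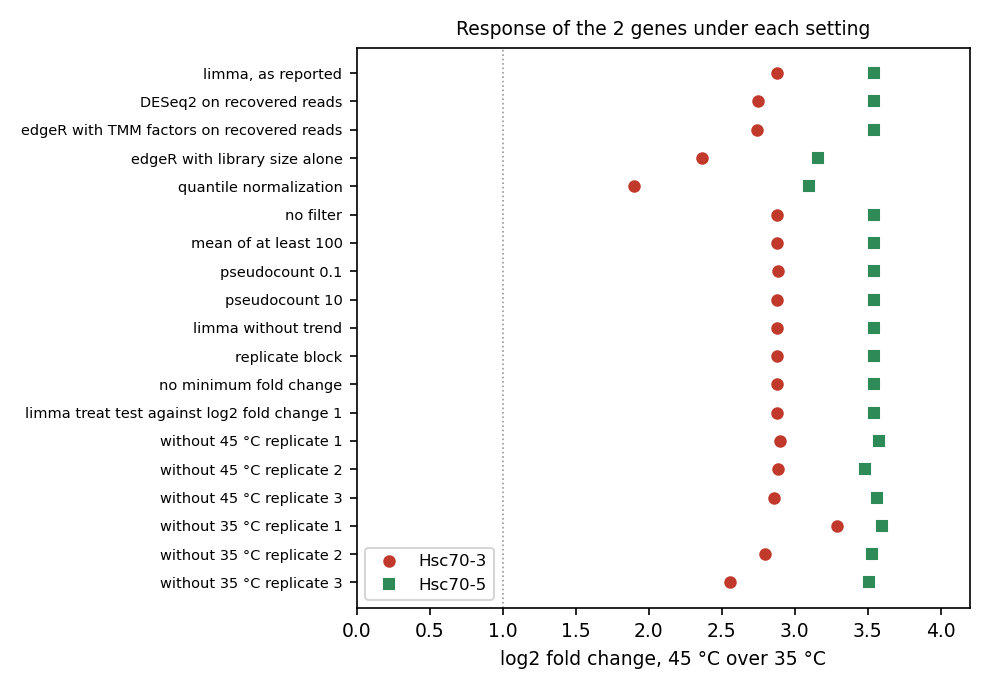
Log2 fold change of Hsc70-3 (circles) and Hsc70-5 (squares) at 45 °C over 35 °C under each setting, with a dotted line at the threshold of 1. Hsc70-3 ran from 1.90 to 3.29 and Hsc70-5 from 3.10 to 3.60, and every point lay above the threshold.

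The genes also differed in their spread among bees. In heated bees Hsc70-3 had a coefficient of variation (CV, the SD as a percent of the mean) of 2.77%, and the highest bee had 1.06 times the value of the lowest. At 35 °C the CV was 54.1%, and the highest bee had 2.77 times the lowest. Counting error alone would give 0.204% at 45 °C and 0.476% at 35 °C, so reads did not limit either value. Of the 2134 genes that averaged 1000 or more normalized counts at each temperature, 2058 had a larger CV than Hsc70-3 at 45 °C and 51 had a larger CV at 35 °C. By the ratio of the CV at 35 °C over that at 45 °C, 19.6, it ranked 4 of these genes. Bee 1 at 35 °C had 63805 normalized counts, against 31953 and 23064 in bees 2 and 3. The CV and these ranks are for normalized counts and depend on how each library was scaled. As a share of recovered reads, Hsc70-3 varied more in heated bees, with a mean of 0.931% and an SD of 0.095. At 35 °C the mean share was 0.181% with an SD of 0.0995. The ranks were not computed on shares, and neither the CV nor the ranks were computed without bee 1.

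On normalized counts Hsc70-5 varied little in both groups. Its CV was 7.34% at 45 °C and 6.59% at 35 °C, with the highest bee at 1.14 times the lowest at 45 °C and 1.13 times at 35 °C. As a share of reads it had a mean of 0.195% with an SD of 0.0236 at 45 °C. At 35 °C its mean share was 0.0218% with an SD of 0.00161. For the same 2134 genes the median CV was 12.2% at 45 °C and 11.9% at 35 °C. Spread was thus no smaller in general at 45 °C, and the SD of log2 values was larger at 35 °C for 48.2% of these genes. No test was made of the CVs, which rest on 3 bees a group.

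**Figure D3:**
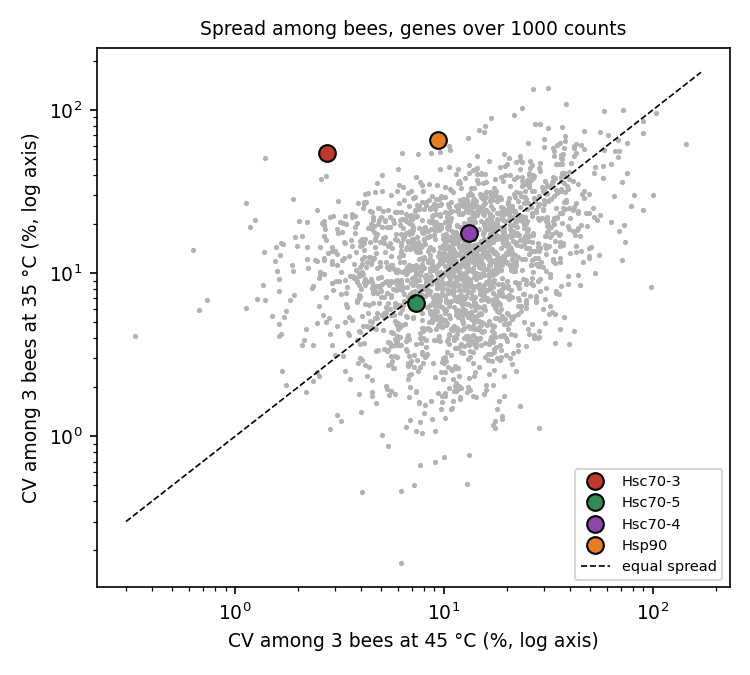
CV of normalized counts among the 3 bees at 35 °C (vertical, log axis) against that among the 3 bees at 45 °C (horizontal, log axis). Shown are the 2134 genes that averaged 1000 or more normalized counts at each temperature. The dashed line marks equal spread. Hsc70-3 lay at 2.77% at 45 °C and 54.1% at 35 °C, to the upper left of the cloud, and Hsc70-5 at 7.34% at 45 °C and 6.59% at 35 °C, near the line.

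The wide spread of Hsc70-3 at 35 °C came with that of Hsp90, the cytosolic chaperone of kinases and steroid receptors. Bee 1 had 2.00 and 2.77 times the Hsc70-3 counts of bees 2 and 3, and 2.19 and 3.70 times their Hsp90 counts. For Hsc70-4 these ratios were 1.21 and 1.42, for Cdc37 they were 1.38 and 1.47, and for Hsc70-5 they were 1.10 and 1.13. All of these genes had the same order of bees. In 28 of the 2134 genes bee 1 had at least 2 times the counts of both other bees, against 6 genes for bee 2 and 1 gene for bee 3. Hsp90 was among the 28, but Hsc70-3, at 1.997 times bee 2, fell just short. In 42 of the 2134 genes bee 1 had at most 0.5 times the counts of both others, so it stood apart in both directions. What set bee 1 apart was not tested.

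Whether the ER and the mitochondrial gene responded to a different degree was asked within libraries, where a single scaling factor per library cancels. The ratio of Hsc70-3 to Hsc70-5 counts was 4.90, 4.39 and 5.08 at 45 °C, against 12.4, 6.85 and 5.09 at 35 °C. Heated bees thus had the lower ratios, but the highest of them and the lowest at 35 °C lay next to each other. The response of Hsc70-3 minus that of Hsc70-5 was -0.66 on the log2 scale (SE 0.38), with p = 0.1 in a two-sided exact permutation test and 0.3 after adjustment over 3 pairs of genes. Without 35 °C replicate 1 it was -0.30 and without 35 °C replicate 3 it was -0.95, so its size moved with single bees. Quantile normalization, which does not cancel in the ratio and was applied to it after the data had been seen, gave -1.20 (exact permutation p = 0.1). A difference in response was not shown.

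Against Hsc70-4 the organelle genes lay on opposite sides, and for both the ratios at 45 °C and at 35 °C overlapped. Hsc70-4 had 633784, 617451 and 493328 normalized counts at 45 °C, against 71028, 58854 and 49953 at 35 °C, a log2 fold change of 3.28 (SE 0.26, limma adjusted p = 1.41e-04). The response of Hsc70-3 was -0.40 relative to it (SE 0.32, exact permutation p = 0.3), and the ratio was 0.409, 0.430 and 0.555 in heated bees against 0.898, 0.543 and 0.462 at 35 °C. The response of Hsc70-5 was 0.26 relative to it (SE 0.15, exact permutation p = 0.2), and the ratio was 0.0835, 0.0979 and 0.109 in heated bees against 0.0722, 0.0793 and 0.0907 at 35 °C. Adjusted over the 3 pairs, each p was 0.3.

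**Figure D4:**
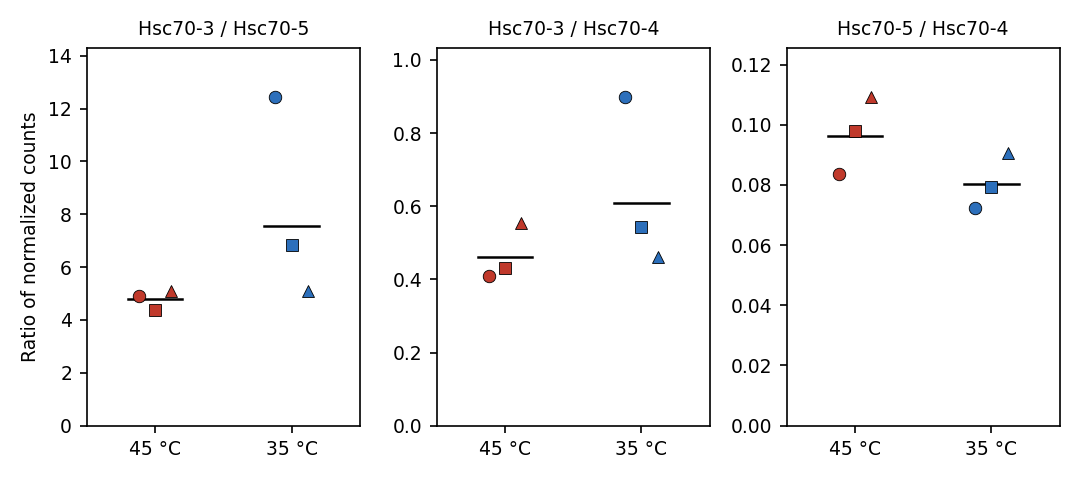
Ratio of normalized counts of each pair of Hsp70 genes in single midguts at 45 °C (red) and 35 °C (blue), with circles, squares and triangles for bees 1, 2 and 3 and a bar at the geometric mean. For Hsc70-3 over Hsc70-5 the heated bees lay between 4.39 and 5.08 and bee 1 at 35 °C stood alone at 12.4.

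Other chaperones that could be named by symbol were cytosolic. Of these, 3 of 4 rose, against the 13.1% of all genes. Hsp90 had 671929, 593271 and 561035 normalized counts at 45 °C, against 43592, 19949 and 11776 at 35 °C, a log2 fold change of 4.80 (SE 0.44, limma adjusted p = 3.09e-04). Cdc37, which hands kinases to Hsp90, had 38965, 35290.4 and 40553 at 45 °C, against 5166, 3755 and 3522 at 35 °C, a log2 fold change of 3.22 (SE 0.17, limma adjusted p = 3.15e-05). The log2 fold change of Hsc70-5 thus lay between those of Hsc70-4 and Hsp90, and that of Hsc70-3 lay below all 3 cytosolic chaperones that rose. PIH1D1, an adaptor of the R2TP complex in other species, had 116, 126 and 127 normalized counts at 45 °C and 193, 161 and 187 at 35 °C. Its log2 fold change of -0.55 (limma adjusted p = 0.0341) was not past the threshold, though every heated bee lay below every bee at 35 °C.

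No other ER gene that could be named by symbol was past the threshold. There were 3. Ppib is a prolyl isomerase of the ER lumen, STT3B is a catalytic subunit of N-glycosylation, and Slc35b1 in mammals exchanges ATP and ADP across the ER membrane, which supplies BiP. None of the 3 was called with limma, DESeq2 or edgeR, or under any alternative. On the deposited scale with limma 0 had an unadjusted p below 0.05, as with DESeq2 and with edgeR on TMM factors. This number was 2 with edgeR on library size alone, and 1 with limma after quantile normalization, with the replicate block and without 45 °C replicate 1. Ppib had 9185, 9088 and 7858 normalized counts at 45 °C, against 9238, 6976 and 7919 at 35 °C, a log2 fold change of 0.12 (95% interval -0.22 to 0.46). STT3B had 2474, 2126 and 1566 at 45 °C, against 2752, 1929 and 2332 at 35 °C, a log2 fold change of -0.20 (95% interval -0.67 to 0.28). The groups overlapped for both, and also for Slc35b1. Slc35b1 had 1568, 1384 and 1034 at 45 °C, against 1983, 1509.6 and 1625 at 35 °C, a log2 fold change of -0.37 (95% interval -0.80 to 0.06). The median of the 3 genes was -0.20, beside -0.01 for all genes tested.

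Genes of other mitochondrial proteins were called in both directions. Of 17 listed by symbol, 1 rose and 2 fell, against 13.1% and 4.94% of all genes. Their median log2 fold change was -0.31, beside -0.01 for all genes. CytC, the electron carrier cytochrome c, had 11300.1, 9638.5 and 7947 normalized counts at 45 °C, against 5884, 3569 and 3547 at 35 °C, a log2 fold change of 1.18 (limma adjusted p = 0.00649). It was not past the threshold with library size alone (0.75) or after quantile normalization (0.95), where no gene of the list rose. IF-2mt, which starts translation on mitochondrial ribosomes, fell to 412, 566 and 552 at 45 °C, against 1466, 1361 and 1395 at 35 °C, a log2 fold change of -1.48 (limma adjusted p = 4.70e-04). ACSF2, an acyl-CoA synthetase, fell to 407, 270.4 and 216 at 45 °C, against 1029, 1149 and 569 at 35 °C, a log2 fold change of -1.60 (limma adjusted p = 0.00703).

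The remaining mitochondrial genes stayed short of the threshold. Tom7, a subunit of the outer membrane translocase that feeds proteins towards Hsc70-5, had 827, 594 and 649 normalized counts at 45 °C, against 1065, 964 and 894 at 35 °C. Its log2 fold change of -0.51 had an adjusted p of 0.0367 from limma. For the subunits of respiratory complexes and ATP synthase, log2 fold changes ran from -0.84 in Cox6b1 (limma adjusted p = 0.00138) to 0.18 in ATP5G2. Whatever the size of the change, 7 of the 17 genes had a limma adjusted p below 0.05, 6 of them lower at 45 °C. Among all 10151 genes 3987 did, 2143 higher and 1844 lower. Over the list, 8 of 17 genes had groups that did not overlap and were lower at 45 °C, against 26.4% of all genes in that direction, and 1 was higher without overlap, against 26.8% of all genes. With library size alone edgeR called 5 genes lower and 0 higher, and the list's median moved to -0.69 with the median of all genes at -0.39.

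**Figure D5:**
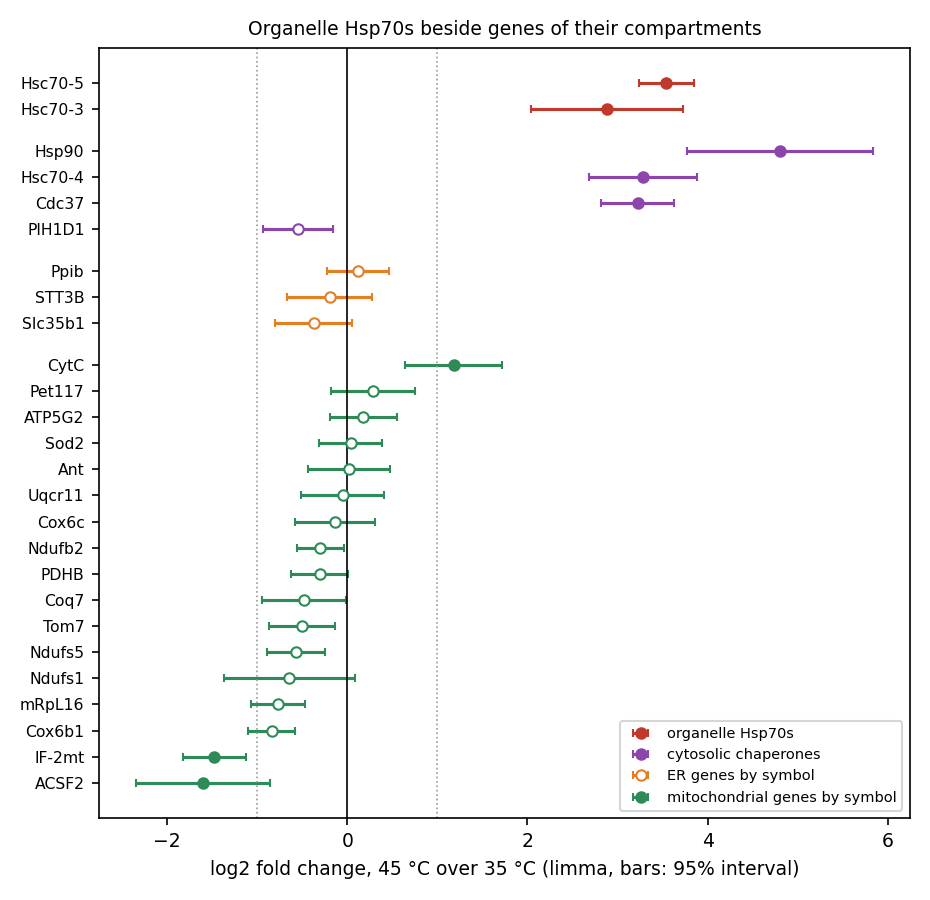
Log2 fold change at 45 °C over 35 °C with 95% intervals from limma for Hsc70-3 and Hsc70-5 (red), cytosolic chaperones (purple), ER genes (orange) and mitochondrial genes (green) named by symbol; filled points were past the threshold, and dotted lines mark log2 fold changes of -1 and 1. Hsc70-3 lay at 2.88 and Hsc70-5 at 3.54, with Cdc37 at 3.22 and Hsc70-4 at 3.28, and CytC was the only 1 of the 20 other organelle genes that rose.

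The genes most like each Hsp70 were then found by the root mean square difference between centred log2 profiles over the 6 libraries. For Hsc70-5 the 5 nearest were LOC551546, LOC409455, LOC412708, LOC725260 and LOC102654597, at differences of 0.083 to 0.113. LOC412708 had 12157, 12037 and 11868 normalized counts at 45 °C, against 1069, 956 and 820.3 at 35 °C. Hsc70-4 ranked 12 by this measure and Hsc70-3 ranked 123. For Hsc70-3 the nearest genes were less alike, at differences of 0.231 to 0.254, and 2 of the 5, LOC100577841 and LOC107964589, had means at 35 °C of only 6.58 and 2.71 normalized counts. Among the other 3, LOC412067 and LOC552531 were also high in bee 1 at 35 °C, by 1.73 and 1.99 times and by 2.15 and 1.84 times bees 2 and 3. In likeness to Hsc70-3 over all 6 libraries, Hsc70-4 ranked 39, Hsc70-5 ranked 129 and Hsp90 ranked 1007.

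LOC412150, the third nearest to Hsc70-3, shared both its rise and its spread. It had 53241, 54383 and 54666 normalized counts at 45 °C, against 17568, 9097 and 6757 at 35 °C. Bee 1 had 1.93 and 2.60 times the counts of bees 2 and 3, and the heated bees differed by no more than 1.03 times. Its log2 fold change was 2.40 (SE 0.32). It was chosen by its likeness to Hsc70-3 over these same 6 libraries, so its rise and its spread are no separate support. Each profile holds 6 points in 2 groups and shares the same libraries, so likeness is a description. No names are given for these IDs in the sources used here.

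Neighbouring genes, looked up after the values were seen, were taken from the gene table of Amel_HAv3.1, a later assembly than that used for the counts, in which no gene overlaps Hsc70-3 or Hsc70-5. The gene that follows Hsc70-3, LOC413708, rose as well. It had 1788, 1931 and 1677 normalized counts at 45 °C, against 887, 685 and 721 at 35 °C, a log2 fold change of 1.24 (SE 0.14, limma adjusted p = 6.91e-04). It was past the threshold under 16 of 18 alternatives. The exceptions were library size alone (0.85) and limma when changes beyond a log2 value of 1 were required. A gene that follows Hsc70-4, LOC727596, also rose, with a log2 fold change of 1.96 (limma adjusted p = 9.29e-04), so a rising neighbour was not particular to Hsc70-3. LOC727596 was past the threshold under 17 of 18 alternatives. Over all genes, 13.1% were called higher and 4.94% lower. The genes before Hsc70-3, LOC724212 and LOC102654919, and the gene after LOC413708, LOC102655746, had log2 fold changes of -0.18, -0.53 and -0.14 and were not past the threshold. Of the 4 genes around Hsc70-5, 0 were past it on all 6 libraries. Nearest before it was LOC724541, with 0.85 (limma adjusted p = 0.0169), which was past the threshold without 45 °C replicate 2, at 1.01 (limma adjusted p = 0.0165). Then came Prpf3, with 0.44 (limma adjusted p = 0.0185), where every heated bee lay above every bee at 35 °C. After it came LOC551732, with -0.45, and LOC100577959, with -0.03. Hsp70 genes resemble each other in sequence, and whether reads of one were counted on another was not tested.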

How the data were processed

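The members and lists were chosen with earlier results of these data known. By the methods, trimmed reads were mapped to Amel 4.5 and the authors took counts per gene. The submitters' processing notes name Trimmomatic 0.36, STAR, Subread and DESeq2. How strand was used is not stated there. In the 3 deposited tables of 10151 genes the signal is the gene count over the DESeq2 size factor of its library. All values were whole multiples of 1 step per library within 0.01 of a read, so reads were recovered, and the size factors could be computed again. Values were compared on log2(value + 1) with limma 3.58.1 (trend, R 4.3.3, Benjamini-Hochberg over all genes). A mean of at least 1 removed no gene. DESeq2 1.42.0 and edgeR 4.0.16 on recovered reads, other scalings, filters, pseudocounts of 0.1 and 10, a replicate block and leaving out each library were alternatives. Limma, edgeR and DESeq2 were tested on simulated data. Named genes were Hsc70-3, Hsc70-5, Hsc70-4, list members, and the 5 nearest profiles to each member. A call was an adjusted p below 0.05 with an absolute log2 fold change above 1, as in the methods. Lists by product name or by sequence were not used here, as IDs could be paired with symbols only (9300 of 10151 IDs matched Amel_HAv3.1). They were replaced by lists by symbol, drawn up after the files were seen. Neighbouring genes were also added then.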

Additional observations from a re-analysis of the deposited data

How the results depend on the processing

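Hsc70-3 and Hsc70-5 kept their direction and stayed past the threshold under all 18 alternatives, with adjusted p of at most 0.0179 and 1.22e-04 (limma, DESeq2 or edgeR). With 1 library left out, the log2 fold change ran from 2.56 to 3.29 for Hsc70-3 and from 3.48 to 3.60 for Hsc70-5, and the response of Hsc70-3 minus that of Hsc70-5 ran from -0.95 to -0.30. The genes past the threshold, 1828 in all (1327 higher and 501 lower), numbered 3987 with no minimum fold change and 395 when limma required changes beyond a log2 value of 1 (treat), both by construction, and 1559 to 1801 with 1 library left out. Of all calls 72.6% were higher, against 57.3% (1080 higher and 804 lower) after quantile normalization and 34.3% (850 higher and 1630 lower) on library size alone, 53.7% with no minimum fold change and 96.7% with treat. The absence of a filter changed nothing, as it removed no gene. Whether equal replicate numbers pair the libraries could not be decided from 3 libraries a group. The correlations of their deviations were 0.170, 0.098 and 0.011, and not every library correlated best with its own number. After quantile normalization, an alternative added after the data had been seen, the response of Hsc70-3 minus that of Hsc70-5 was -1.20. The rank of Hsc70-3 by log2 fold change ran from 136 to 455 and that of Hsc70-5 from 66 to 153 over the 18 alternatives, where a mean of at least 100 left fewer genes to rank. With the replicate block 1348 genes were higher and 524 lower, Hsc70-3 had an adjusted p of 0.00186, Hsc70-5 had 7.11e-05, and the response of Hsc70-3 minus that of Hsc70-5 stayed at -0.66. The mitochondrial list had 3 calls, against 5 with library size alone, 7 with no minimum fold change and 0 with treat. Lists by product name, by sequence and by ER retention tail were not run.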

Other observations

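Of the 2134 genes that averaged 1000 or more normalized counts at each temperature, 3 had a larger ratio of the CV at 35 °C over the CV at 45 °C than the 19.6 of Hsc70-3. These CVs are of normalized counts, and shares of reads were not used for them. The 3 genes were singled out after their values were seen. LOC412150 had CVs of 1.39% at 45 °C and 51.1% at 35 °C, LOC551696 had 1.12% at 45 °C and 27.0% at 35 °C, and LOC550716 had 0.630% at 45 °C and 13.8% at 35 °C. Hsc70-5 had a ratio of 0.899, and the median of these genes was 0.962.

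Among the markers of other tissues, single genes differed between bees, and these 2 were picked after their values were seen. Melt, the gene of melittin, had 14.8, 7.95 and 430.1 normalized counts at 45 °C, against 4.66, 1.69 and 3.53 at 35 °C. Vg, the gene of vitellogenin, had 84.9, 342 and 505 at 45 °C, against 5.60, 87.2 and 13.2 at 35 °C. Among the bees at 35 °C, Vg was highest in bee 2, while Hsc70-3 was highest in bee 1.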
